A study of Drosophila melanogaster with 2 samples.

Results

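The Polycomb group genes are 10 of the 13968 protein-coding genes on the assembled arms of the Drosophila melanogaster genome: ph-p, ph-d, Pc, Psc, Su(z)2, E(z), esc, Scm, pho and Sfmbt. They were listed by symbol and located in the dm6 gene models, where all 10 were found. The group was chosen by measured values, with the peaks of these data and above all the high ph-p signal in view, so the values below are a description with no test. Chromatin immunoprecipitation with sequencing was used to map ranshi-eGFP, a green fluorescent fusion of the ZAD zinc finger protein ranshi, with an antibody against GFP. Both libraries, biological replicates 1 and 2 of a single group, came from whole embryos aged 0 to 24 h of a strain with an insertion of the tagged gene. The tag, the strain and the antibody were the same in both, there was no second group, and control libraries were not analysed here. Such embryos mix all cell types and all embryonic stages, so the cells in which a site was bound cannot be told, and peak lists hold no expression values with which to check the labelled tissue.

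Polycomb group proteins keep developmental genes, above all the homeotic genes, silent through cell divisions. They act in complexes on chromatin. Polycomb repressive complex 1 holds the Polycomb protein, Polyhomeotic and Posterior sex combs, and compacts chromatin and modifies histone H2A. Polycomb repressive complex 2 methylates histone H3 through Enhancer of zeste, and the Pho repressive complex ties both to DNA elements called Polycomb response elements.

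Of the 10 genes, ph-p had the highest peak. Inside the gene or within 5 kb, 6 had a peak in the strictest set, against 36.3% of all protein-coding genes. The genes esc, Scm and pho had none in any thresholded set. The share of all genes with none in any of these sets was not counted. A peak was assigned by its summit, the deposited position of highest signal. The authors deposited 4 thresholded sets, a conservative set of 2984 peaks and a larger set of 5373 over both replicates, and sets of 3636 and 3149 peaks for replicates 1 and 2. Each was cut from a longer ranked list of candidates. Signal is the peak caller's own value, has no physical unit and is not scaled between sets, so levels are compared within a set and by rank, where rank 1 is the highest signal. No source used here gives the read depth.

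A conservative summit lay within 500 bp of a transcript start at 2 of the 10 genes, ph-p and E(z), where 12.7% of all protein-coding genes had one. In the larger set there were 4, with Su(z)2 and Sfmbt added, against 20.5% of all genes. Replicate 1 had 3, ph-p, E(z) and Sfmbt, against 14.5%, and replicate 2 had 5, ph-p, Psc, Su(z)2, E(z) and Sfmbt, against 13.9%. Both replicate sets had a promoter summit at ph-p, E(z) and Sfmbt, 3 of the 10, against 8.77% of all genes. At Sfmbt the replicates' peaks did not overlap each other, which left 2 genes with a shared promoter peak. With 10 genes chosen with the ph-p peak in view, counts of this size say nothing particular about the group.

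Counting summits inside the gene or within 5 kb, the conservative set reached 6 of the 10 genes, against 36.3% of all genes: ph-p, ph-d, Pc, Psc, E(z) and Sfmbt. The larger set reached 7, with Su(z)2 added, against 51.2%. Replicate 1 reached the same 6, against 40.0%, and replicate 2 the same 7, against 38.2%. The members are long, with a median length of 8.36 kb against 2.16 kb for all protein-coding genes, and a long gene has more room for a summit. The part of length in these counts was not tested.

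**Figure D1:**
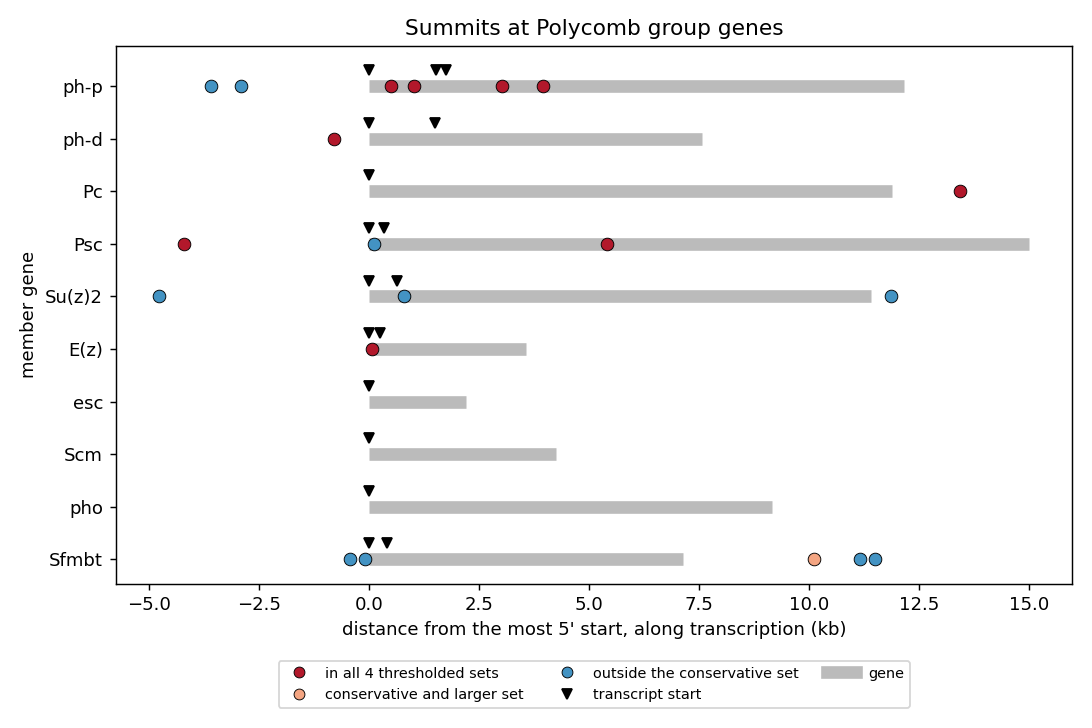
Position of each thresholded summit at the 10 Polycomb group genes, in kb from the most 5′ transcript start along the direction of transcription. Grey bars are genes, triangles are transcript starts and circles are the 20 sites, coloured by the sets that hold them. ph-p has 4 sites in all 4 sets inside its 5′ part, while esc, Scm and pho have no site.

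Overlapping peaks of the 4 sets formed 20 sites at the 10 genes, of which 9 were in all 4 sets and 10 were outside the conservative set. The sequences of 5 sites are shown here. They were chosen to show the summits of the highest ph-p peak, of the ph-d peak and of the lower intronic ph-p peaks. They also show the single match of the 20 sites to the searched word TATCGATA, at Sfmbt. Each holds a summit and the 50 bases to each side, read 5′ to 3′ on the plus strand of the RefSeq sequence of dm6. The genes themselves run on the minus strand. Capitals mark matches, on either strand, to one of 7 searched words. CACTG was searched without a named factor. GAGAG is the core of the GAGA factor site and GCCAT that of the Pho site. TATCGATA is the DNA replication-related element, and its part CGATA was searched alone too. TAATTA is a homeodomain core and TATAAA the TATA box.
ph-p, highest peak, X:2137299-2137399: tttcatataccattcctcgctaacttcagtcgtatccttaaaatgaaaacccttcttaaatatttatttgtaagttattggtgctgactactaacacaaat
ph-d, upstream peak, X:2124041-2124141: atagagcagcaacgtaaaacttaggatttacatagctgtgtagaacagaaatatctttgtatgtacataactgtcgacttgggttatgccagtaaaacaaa
ph-p, first intronic peak downstream, X:2135293-2135393: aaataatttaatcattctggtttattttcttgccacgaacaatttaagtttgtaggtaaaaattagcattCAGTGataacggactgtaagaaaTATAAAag
ph-p, second intronic peak downstream, X:2134372-2134472: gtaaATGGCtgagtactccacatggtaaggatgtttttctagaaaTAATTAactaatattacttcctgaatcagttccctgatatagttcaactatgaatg
Sfmbt, promoter peak, 2L:13176826-13176926: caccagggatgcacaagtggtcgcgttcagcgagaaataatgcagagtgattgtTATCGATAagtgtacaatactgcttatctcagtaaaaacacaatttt
The windows of the highest ph-p peak and of the ph-d peak hold no capitals, because none of the 7 words occurs in them. The first intronic ph-p window holds CACTG on the minus strand and TATAAA, and the second holds GCCAT on the minus strand and TAATTA. The Sfmbt window holds TATCGATA, which as a palindrome reads the same on both strands and contains CGATA on each.

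Among the genes of Polycomb repressive complex 1, ph-p (FBgn0004861, X:2126210-2138371, minus strand) stood out. It and ph-d are neighbouring copies that encode Polyhomeotic proteins, which polymerise through a SAM domain. ph-p has 3 annotated transcript starts. Its highest peak, at X:2137212-2137503, lay in an intron, with the summit 494 bp upstream of the middle start and 1022 bp downstream of the most 5′ one. It had a signal of 1699 and rank 7 in the conservative set, and also rank 7 in the larger set. Replicate 1 had a signal of 1304 and rank 6 there, and replicate 2 a signal of 398 and rank 17. It was thus among the 20 highest peaks of every set.

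A second ph-p peak, at X:2137734-2138032 in the 5′ UTR of the longest transcript, had its summit 498 bp downstream of the most 5′ start. Its signal was 664, with rank 93, in the conservative set. The replicates had 456 with rank 95 and 204 with rank 112. The ranks of this peak were thus close to each other in the 3 sets. Both promoter summits of ph-p sat near the edge of the 500 bp window, and with a window of 200 bp ph-p had no promoter summit in any of these 3 sets.

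The other ph-p peaks of the conservative set were intronic and lower. At X:2135185-2135500, with the summit 1279 bp downstream of a start, the signal was 188 and the rank 984. The replicates had 118 with rank 1085 and 54.4 with rank 1523. At X:2134384-2134488, with the summit 2200 bp downstream, the conservative signal was 143 and the rank 1429, and the replicates had 90.8 with rank 1531 and 51.8 with rank 1689. Signals of the 4 peaks kept the same order in the conservative set and in each replicate.

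Farther upstream of ph-p, in the range of the neighbouring gene D2hgdh, which encodes D-2-hydroxyglutarate dehydrogenase, weaker peaks appeared outside the conservative set. One, at X:2141797-2142112, was in the larger set with a signal of 65.1 and rank 4195, and in replicate 2 with 70.7 and rank 955. Its summit lay 466 bp downstream of the D2hgdh start and 3584 bp upstream of ph-p. An overlapping peak of the larger set, at X:2141999-2142314, had 16.4 and rank 5243. Another, at X:2141137-2141426, was in the replicate 2 set alone, with 41.7 and rank 2432, 207 bp upstream of D2hgdh. Replicate 1 had neither in its thresholded set.

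ph-d (FBgn0004860, X:2115727-2123286, minus strand) had a single thresholded site. At X:2123945-2124155, in the intergenic sequence between the copies, the summit lay 805 bp upstream of the most 5′ ph-d start. The signal was 263 with rank 556 in the conservative set and 204 with rank 451 in replicate 1. Replicate 2 had 49.8 and rank 1820 of 3149. The replicates thus placed this peak quite differently within their sets. This summit also lies within 5 kb of the 3′ end of ph-p, and was counted there too. Within 500 bp of a ph-d start there were candidates below the limit only. The highest had a signal of 37.7 and a score of 314 in the conservative ranked list, and 57.9 and a score of 666 in the larger one, where the sets start at a score of 830. Replicate 1 had 52.5 with a score of 234, and replicate 2 came closest to the limit, with 31.7 and a score of 784.

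Because ph-p and ph-d are copies, reads from identical stretches could be placed at either. Of all 36-base words in ph-p with 5 kb to each side, 18.0% occurred more than once on the assembled arms, and 18.3% for ph-d. Within the peak intervals of all 20 sites, 0 such words did. No source used here gives the read length or the treatment of reads with several matches.

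Stretches of the peaks of both genes nevertheless aligned with sequence at the other copy. The identity that unrelated sequence would reach was not computed. The ph-d peak aligned with ph-p sequence from X:2137766 to X:2137878, at 71.3% identity, which lies inside the second ph-p peak and contains its summit. The aligned part of the ph-d peak lies 17 bp from the ph-d summit and does not contain it. The second ph-p peak in turn aligned at 68.9% over 180 columns with X:2124170-2124337, next to the ph-d peak. The intronic ph-p peak at 1279 bp aligned at 59.2% with X:2124078-2124330, which overlaps that stretch and contains the ph-d summit. The aligned part of this intronic ph-p peak contains its own summit too. The alignments thus do not pair the summits uniquely. The edge of the highest ph-p peak held the closest copy, 53 columns at 86.8% identity with a run of 24 identical bases. It is shown because it has the highest identity of the aligned blocks, and capitals mark bases that are identical in both.
ph-p, edge of the highest peak, X:2137212-2137264: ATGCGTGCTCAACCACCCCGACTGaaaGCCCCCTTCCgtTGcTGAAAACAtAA
ph-d, upstream copy, X:2123645-2123696: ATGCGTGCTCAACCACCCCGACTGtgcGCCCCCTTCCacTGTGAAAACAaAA
This block lies 85 bp from the ph-p summit and does not contain it. Its copy lies at -384 bp of the nearest ph-d start, and no thresholded peak of any set overlapped it.

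Pc (FBgn0003042, 3L:21306138-21318020, minus strand) encodes Polycomb, whose chromodomain binds methylated lysine 27 of histone H3. Its one site was not at its promoter. At 3L:21304463-21304690 the summit lay 1558 bp beyond the 3′ end of Pc and 78 bp downstream of the start of CG11309, in an intron of that gene. The signal was 615 with rank 108 in the conservative set. Replicate 1 had 311 and rank 205, and replicate 2 had 303 and rank 37. This was the one shared site at which the replicates' signals were nearly equal. At the Pc start itself the highest conservative candidate had a signal of 39.9 and a score of 46, and in replicate 2 the highest reached 21.8 with a score of 768.

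The candidates around Pc also left a gap. No candidate summit lay between positions 21305812 and 21316642 of arm 3L in the conservative ranked list, 10.8 kb that covers most of the gene, and the gap there was 10.4 kb, 10.8 kb and 10.3 kb in the larger, replicate 1 and replicate 2 lists. Gaps at least that long made up 1.55% of all gaps in the replicate 2 list. Such shares, here and below, count gaps and not genes. A long gap covers more sequence than a short one, and the share of genes in such gaps was not counted. In the Pc gene with its flanks, 41.4% of 36-base words occurred more than once in the genome, the highest share of the 10 genes. The part of repeated sequence in the gap was not tested.

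Psc (FBgn0005624, 2R:12965997-12980994, minus strand) and Su(z)2 (FBgn0265623, 2R:12996501-13007911, plus strand) are neighbours that encode related RING finger proteins of Polycomb repressive complex 1 or variants of it. The second highest peak of the group belonged to Psc by position only. At 2R:12985064-12985350, between the genes, its summit lay 4212 bp upstream of Psc and 11295 bp upstream of Su(z)2, and 161 bp upstream of the long non-coding RNA gene lncRNA:CR44339. Its signal was 1143 and its rank 27 in the conservative set. The replicates had 762 with rank 29 and 370 with rank 23. The ranks of this peak were therefore nearly the same in all 3 sets, and the replicate summits fell on the same base.

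Inside Psc, an intronic peak at 2R:12975506-12975671, with its summit 5075 bp from the nearer start, had a signal of 297 and rank 462. The replicates had 189 with rank 513 and 106 with rank 441. At the Psc promoter, replicate 2 alone had a site, made of overlapping peaks. The higher one, at 2R:12980731-12981020, had its summit in the 5′ UTR, 118 bp downstream of a start, with a signal of 37.6 and rank 2755 of 3149. The other, at 2R:12980931-12981220, had its summit nearer a start, at -82 bp, with a signal of 4.92 and rank 3122. The ranked lists of the conservative set and of replicate 1 held no candidate within 500 bp of a Psc start.

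Su(z)2 had no conservative peak, and its sites came from the larger and replicate 2 sets. An intronic promoter peak at 2R:12997132-12997447 lay 167 bp downstream of a start by its summit, with a signal of 70.1 and rank 3856 in the larger set, and 53.2 with rank 1596 in replicate 2. A peak 4775 bp upstream, at 2R:12991568-12991883, had 99.0 with rank 2507 in the larger set and 46.6 with rank 2059 in replicate 2. One more, at 2R:13008201-13008516, 448 bp beyond the 3′ end, was in the larger set alone, with 60.0 and rank 4570. None of them was in the replicate 1 set.

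The ranked lists differed at Su(z)2 in the same way. Inside the gene or within 5 kb, replicate 2 listed 25 candidates and replicate 1 listed 3, the highest with a signal of 19.9. The median over all protein-coding genes was 13 in replicate 2 and 11 in replicate 1. Replicate 1 also had a 31.3 kb gap without candidates from 13004005 to 13035342, which begins inside Su(z)2. Of its gaps, not of genes, 0.167% were as long, and the share of genes in such gaps was not counted.

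Scm (FBgn0003334, 3R:9633359-9637611, minus strand), whose SAM and MBT domain protein links Polyhomeotic and the Pho complex, had no thresholded peak. The replicates differed here as they did at Su(z)2. Replicate 1 listed 0 candidates in range and replicate 2 listed 16, the highest with a signal of 30.3 and a score of 686. In replicate 1 the gap ran for 20.8 kb, from 9622728 to 9643520. Of the gaps in that list, not of genes, 0.392% were as long. The conservative ranked list also had 0 candidates, and the larger ranked list had 19.

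One Scm candidate met the score limit and was still not in the set. In the larger ranked list, the candidate at 3R:9630920-9631235 had a signal of 59.1, a score of 995 and a global irreproducible discovery rate (IDR) of 0.00401. Its summit lay at -227 bp of the start of Calr, which encodes calreticulin. Over the genome the larger set left out 163 candidates that met the limit, for a reason that no source used here gives. For Scm, the lack of a peak in the larger set therefore rests on that step as well as on the score.

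The genes of Polycomb repressive complex 2 were unlike each other. E(z) (FBgn0000629, 3L:10634575-10638130, minus strand) encodes the methyltransferase of lysine 27 of histone H3, and had the one promoter peak of the group whose summit lay close to a start in all 4 sets. At 3L:10637917-10638137 the summit was in the 5′ UTR, 72 bp downstream of the most 5′ start. The signal was 372 with rank 301 in the conservative set. Replicate 1 had 279 and rank 263, with the summit at 55 bp, and replicate 2 had 97.0 and rank 508, with the summit 119 bp upstream of the other start. The 30 bases at the conservative summit, shown as the one member promoter with a summit within 200 bp of a start in the conservative set, hold none of the 7 words, while the longer window of 50 bases to each side, counted below, holds 1 TATAAA.
E(z), promoter peak, 3L:10638043-10638072: ttaaattagctatacaaccattttgtactg

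esc (FBgn0000588, 2L:11827204-11829405, minus strand), which encodes the WD40 subunit that binds the methylated histone tail, had no thresholded peak. Its ranked lists were not empty, with 13 candidates in the conservative list, 10 in replicate 1 and 9 in replicate 2. The highest, 393 bp downstream of the start, had a conservative signal of 46.7 and a score of 205, and the same candidate had a score of 609 in the larger list. The highest in replicate 1 had a signal of 35.0 and a score of 341, and in replicate 2 a signal of 17.1 and a score of 198. All were below the limit of 830. The closest conservative summit lay 10639 bp beyond the gene.

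The Pho complex consists of a DNA-binding protein and its partner. pho (FBgn0002521, 4:1172469-1181628, minus strand) encodes the zinc finger protein that binds Polycomb response elements, and lies on the small chromosome 4. It had 0 thresholded peaks and 0 candidates in all 4 ranked lists. Genes with 0 candidates in range made up 15.3% of all protein-coding genes in the conservative list, 4.22% in the larger one, 9.39% in replicate 1 and 9.14% in replicate 2. All of chromosome 4 held 1, 3, 1 and 12 peaks in the conservative, larger, replicate 1 and replicate 2 sets. In the ranked lists, in the same order, it held 24 of 89391, 50 of 132943, 44 of 112688 and 467 of 83284 candidates. The gap around pho was 250 kb in replicate 1 and 66.2 kb in replicate 2. Of the replicate 2 gaps, not of genes, 0.0925% were as long. The empty lists at pho are thus shared with the sequence around it.

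Sfmbt (FBgn0032475, 2L:13169649-13176785, minus strand) encodes the MBT domain partner of Pho, and had the most scattered calls. The 1 conservative site was the lowest of the group, with a signal of 65.7 and rank 2832 of 2984, at 2L:13166514-13166829. It lay 2977 bp beyond the 3′ end of Sfmbt in a coding exon of Sirt1, which encodes a histone deacetylase, and was in neither replicate set. At the promoter, the peak at 2L:13176718-13177033 had its summit 91 bp upstream of Sfmbt, in a coding exon of CG43925. It had a signal of 79.1 with rank 3352 in the larger set and 70.0 with rank 2122 in replicate 1.

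Replicate 2 placed its Sfmbt promoter peak elsewhere, at 2L:13177086-13177375. That summit was 446 bp upstream of Sfmbt and 81 bp from the start of CG5439, with a signal of 43.5 and rank 2288. The remaining sites lay more than 4 kb beyond the 3′ end, near Sirt1 and the chaperone gene DnaJ-H. One was in the larger set with 116 and rank 2023 and in replicate 1 with 115 and rank 1133, and the other was in replicate 2 alone with 38.1 and rank 2723. No Sfmbt site was in both replicate sets.

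**Figure D2:**
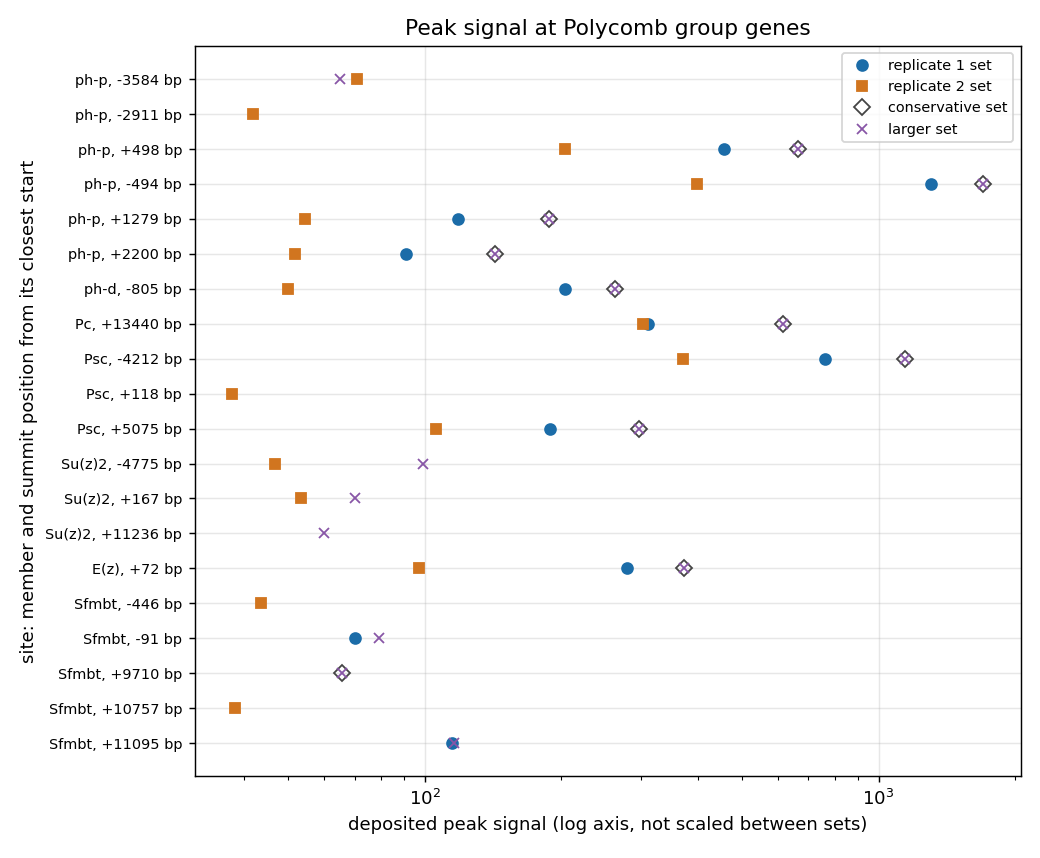
Deposited signal of every site at the Polycomb group genes, on a log axis, in the replicate 1, replicate 2, conservative and larger sets. Each row is a site, named by gene and by the distance of its summit from the closest start of that gene, and a missing symbol means that the set has no peak there. The highest ph-p site reaches 1699 and the highest Psc site 1143, and the 9 sites with all 4 symbols have a higher signal in replicate 1 than in replicate 2.

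Signals were higher in replicate 1 than in replicate 2 at all 9 sites in both sets, so the ratio was read against other peaks. Among the 1774 of 2984 conservative peaks that were matched in both replicate sets, the median ratio was 1.83, with quartiles of 1.37 and 2.42. The ratio was 3.28 at the highest ph-p peak, 4.08 at the ph-d peak and 2.88 at E(z), all above the upper quartile. It was 1.03 at the Pc site, below the lower quartile. The other ph-p peaks had ratios of 2.23, 2.18 and 1.75, and the Psc peaks 2.06 and 1.78, all within the quartiles.

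Many of the sites were closer to another gene. Of the 10 conservative sites, 7 had a member as the gene with the closest start, 4 of them ph-p. The other 3 were those closest to CG11309, lncRNA:CR44339 and DnaJ-H. Of the 10 sites outside the conservative set, 4 had a member as the closest gene.

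Sites in the replicate 2 set and not in the replicate 1 set differed in base composition from those in both. Within 50 bp of the summit, the 9 sites of both replicates had a G+C content of 20.8% to 34.7%, with a median of 26.7%. The 7 sites of replicate 2 without a replicate 1 peak had 38.6% to 58.4%, with a median of 46.5%. The ranges did not overlap, unlike those over the genome. There, replicate 2 peaks that overlapped a replicate 1 peak had a median of 31.7% (n = 1791) and a range of 7.92% to 67.3%. Those that did not had a median of 43.6% (n = 1358) and a range of 15.8% to 70.3%. Genome values were read at replicate 2 summits, and member values at conservative or larger-set summits where there was one. The genome medians differed in the same direction as those of the member sites, with ranges that mostly overlapped. The pattern was therefore not particular to the Polycomb group genes, and the part of base composition in the calls was not tested.

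**Figure D3:**
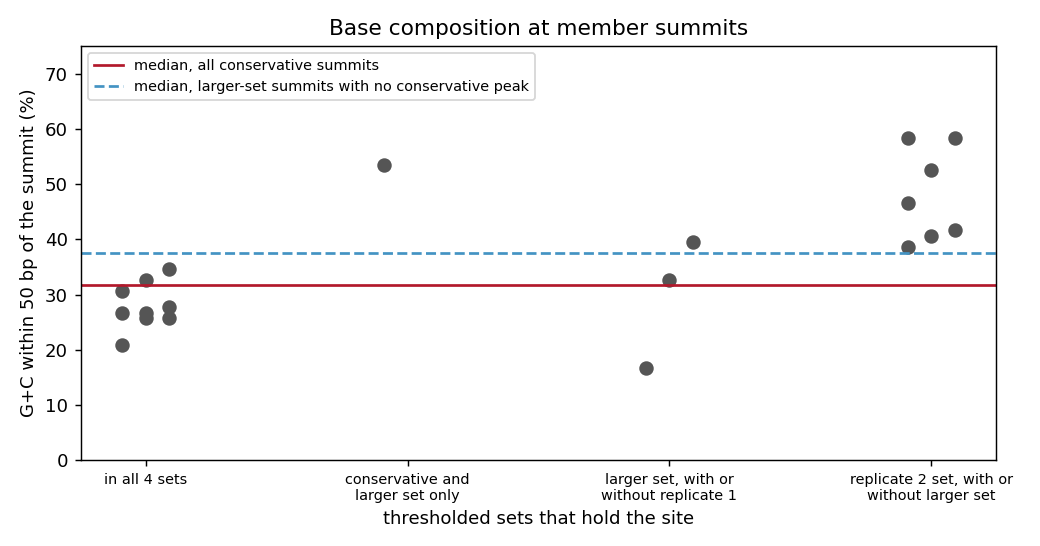
G+C content in percent within 50 bp of the summit for the 20 sites, grouped by the thresholded sets that hold them. Points are single sites, the solid line is the median of all 2984 conservative summits (31.7%) and the dashed line the median of 2478 larger-set summits with no conservative peak (37.6%). The 9 sites of all 4 sets lie at 34.7% or below, and the 7 replicate 2 sites at 38.6% or above.

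Peak width also differed between the member sites. All 10 sites outside the conservative set had the commonest width of their set, and 2 of the 10 conservative sites did. Over whole sets, the commonest width was held by 65.6% of conservative, 80.0% of larger, 75.4% of replicate 1 and 84.2% of replicate 2 peaks. The share over all peaks outside the conservative set was not counted. Nothing particular to the member sites is therefore read from these widths.

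Candidates of any score, above or below the limit, lay near the promoters of most genes. In the conservative ranked list, 6 of the 10 genes had a candidate at a promoter, against 59.0% of all genes, and at 9 in the larger ranked list, against 79.0%. Replicate 1 had 6, against 62.1%, and replicate 2 had 9, against 71.6%. The genes added in replicate 2 were Psc, Su(z)2 and Scm, and pho had none in any list. Replicate 2 listed more candidates in range than replicate 1 at 8 of the 10 genes, and at 54.0% of all protein-coding genes.

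**Figure D4:**
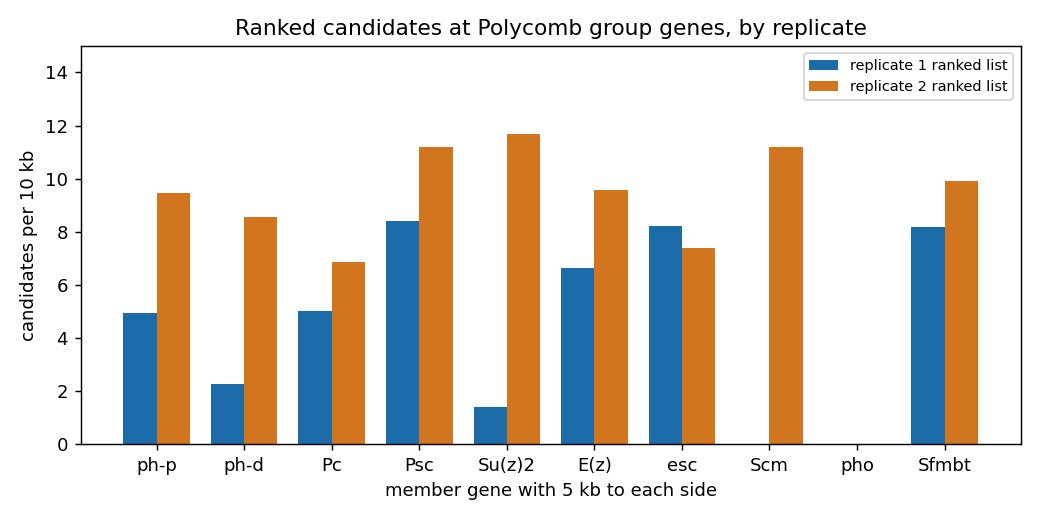
Candidates per 10 kb in the ranked lists of replicate 1 and replicate 2, for each Polycomb group gene with 5 kb to each side. Bars start at 0. Scm has 0 in replicate 1 and 11.2 in replicate 2, Su(z)2 has 1.40 and 11.7, and pho has no bar in either.

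Words at the summits were described next. CACTG was in 2 of the 10 conservative member windows and in 20.2% of all conservative summit windows of that length, and GAGAG in 0 of 10 and 8.78%. GCCAT was in 1 of 10 and 13.5%, and TATCGATA in 0 of 10 and 1.74%. TAATTA was in 2 of 10 and 11.1%, TATAAA in 3 of 10 and 23.1%, and CGATA in 1 of 10 and 14.2%. Outside the conservative set, GAGAG was in 4 of 10 member windows, at Psc, at D2hgdh upstream of ph-p and at both Su(z)2 sites nearest its 5′ end. It was in 14.2% of all larger-set windows with no conservative peak. These 4 are among the 7 member sites in the replicate 2 set and not the replicate 1 set, and over all such replicate 2 peaks the share was 21.2%. That share was read at replicate 2 summits, while member windows were centred on larger-set summits where the larger set had a peak. The G+C content of the 4 member windows was 46.5% to 58.4%, and the part of base composition in these matches was not tested. All 7 words were also counted in the 300 bases around the most 5′ start. There, GAGAG was present at 5 of the 10 genes (ph-p, ph-d, Psc, Su(z)2 and E(z)) and at 29.7% of all protein-coding genes. GCCAT was at 5 and 41.2%, CGATA at 5 and 47.3%, and TATCGATA at 2 and 9.36%. TATAAA was at 4 and 45.8%, CACTG at 2 and 46.1%, and TAATTA at 1 and 20.4%.

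Related genes were counted in lists that hold none of the 10, and 1 gene, phol, stands in both of the first lists. Of 15 other Polycomb group genes matched by symbol, 2 had a conservative promoter summit and 9 a conservative summit in range. They were l(3)73Ah, a RING finger gene related to Psc, with a signal of 128 and rank 1623, and Jarid2, a Polycomb repressive complex 2 subunit gene, with 77.8 and rank 2657. Of 10 genes of DNA-binding proteins linked to Polycomb response elements, 3 had a promoter summit and 9 a summit in range. Trl, which encodes GAGA factor, had 246 and rank 635, Adf1 had 218 and rank 769, and lolal had 131 and rank 1578.

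Of 19 trithorax group genes, whose products oppose Polycomb silencing, 4 had a promoter summit and 13 a summit in range. The brm gene, which encodes the ATPase of a chromatin remodelling complex, had 863 and rank 52. The others were fs(1)h with 108, tna with 87.6 and the histone demethylase gene Kdm5 with 84.7. Of 16 developmental genes known as Polycomb targets, 1 had a promoter summit, the homeotic gene Dfd with 87.5 and rank 2423, and 7 had a summit in range. All these are to be read against the 12.7% and 36.3% of all protein-coding genes. Gene lengths in these lists were not compared with those of all genes, and a long gene has more room for a summit in range. The part of length in these counts was not tested.

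The peaks most like the ph-p promoter peak, by the distance of log2 signal over both replicates among 882 promoter peaks, were those of Tcs5 at 0.20, eIF6 at 0.25 and CG7601 at 0.28. Their conservative signals were 1730, 1527 and 1780, and their summits lay 107, 105 and 99 bp upstream of a start, against 494 bp for ph-p. In conservative rank, ph-p at 7 stood between Tcs5 at 6 and PNPase, a mitochondrial RNA exonuclease gene, at 8 with a signal of 1618. The lowest member site, at 65.7, stood between peaks closest to Rok at 65.9 and Clc at 65.4. Adjacent ranks differed by little, and no error of a single signal is given with which to separate them.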

How the data were processed

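Ranshi-eGFP chromatin immunoprecipitation was sequenced from 2 biological replicates of whole embryos, with sonicated chromatin of 200 to 800 in the labelled size range, per the labels. The deposited files are 8 peak lists on dm6, 4 thresholded and 4 ranked. No source used here names the aligner or the peak caller. The score deposited by the authors is a whole number up to 1000, and in the ranked lists it equalled 125 times the binary logarithm of the inverse global IDR within 1 unit for 100% of candidates. Every thresholded set starts at 830, a global IDR of 0.01, the estimated share of peaks at that rank or better that would not recur. The signal deposited by the authors is the caller's own value, not scaled between lists. The deposited −log10 values give the global IDR. In the ranked lists, 16 columns of values per input could be tied to no sample and were left unused. Depth is unknown, so no counting interval is given.

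Gene models were those of Ensembl release 115 and sequence was read from the RefSeq assembly of that build. All 428083 records on the assembled arms ended within them. Distances run from the summit to the closest start, negative upstream. Peaks of the 4 sets overlapping by 1 bp or more formed a site. Words were counted on both strands within 50 bp of summits and in 250 bp before to 50 bp after the most 5′ start. Copies were aligned locally with Biopython 1.88. One name of the other Polycomb group list, calypso, had no match, and lid was matched as Kdm5. Named genes were all 10 members, the genes closest to their peaks, up to 5 members of each other list with a conservative promoter summit, the 3 promoter peaks most like that of ph-p and the neighbours in rank. The members, lists and words were chosen with earlier results of these data known, and the comparisons of repeated words, G+C content, width, gaps and replicate ratio were added after seeing the data. No test was run, because there is 1 group and the members were chosen by a measured value. The window rules were tested on simulated data, summits planted at known distances.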

Additional observations from a re-analysis of the deposited data

How the results depend on the processing

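The count of members with a conservative promoter summit was 2. It was 4 in the larger set and 1 with a window of 200 bp, which left E(z). With a single replicate it ranged from 3 to 5, where 3 is the set without replicate 2 and 5 the set without replicate 1. The count of members with a promoter summit in both replicates was 3. It was 1 with a window of 200 bp and 6 with ranked candidates in place of thresholded peaks. The count of members with a conservative summit inside the gene or within 5 kb was 6 and ranged from 5 to 7 over its alternatives, 6 to 7 with a single replicate. Over all counts of members, 16 of 21 alternatives stayed within 1.5 times. The E(z) summit was 72 bp downstream of a start, 55 bp without replicate 2 and, without replicate 1, at -119 bp, upstream of another start. The rank percentile of the ph-p peak was 0.235 in the conservative set and 0.540 in replicate 2. Ranked by score, where many peaks tie at 1000, it was 39.9. No paired analysis was possible because the replicates belong to a single group.

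Depth is unknown, signals carry no error, and a gene without a peak is only a gene at which none was listed.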
